A study of Mus musculus with 22 samples.

Results

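Foxm1, Plk1, Aurka, Aurkb, Nek2, Tpx2, Cdc25c, Cdc20, Ube2c and Pttg1 encode a transcription factor, kinases and their regulators, and anaphase factors that act in late G2 phase and mitosis. These 10 genes were taken by their symbols from the 48709 genes of each count matrix, and all 10 were found. FOXM1 and the MMB complex (MuvB with B-MYB) switch on many genes that cells need for mitosis, and LIN9 is a subunit of MuvB. The kinases PLK1 and Aurora A drive centrosome maturation and spindle assembly, TPX2 activates Aurora A on the spindle, and CDC25C removes inhibitory phosphates from the main mitotic kinase. Anaphase starts when the ubiquitin ligase APC/C, with its activator CDC20 and its E2 enzyme UBE2C, marks securin (PTTG1) and cyclin B for destruction. In the embryonic heart the muscle cells still divide, and the Hippo pathway, for which SAV1 is a scaffold, holds back their growth.

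RNA was sequenced from heart ventricles of mouse embryos at E13.5, with 3 libraries per genotype, in 2 separate experiments. All embryos carried Nkx2.5-Cre, which recombines floxed alleles in cardiac precursors, so ventricular cells of other origin keep Lin9 and Sav1. Experiment 1 compared LIN9 KO (Lin9 fl/fl, exon 7 floxed) with LIN9 wt ventricles. Experiment 2 had the control (LIN9 wt and Sav1 wt), LIN9 KO with Sav1 wt, Sav1 KO (Sav1 fl/fl, exon 3 floxed) with LIN9 wt, and the double KO of both genes. The labels call the LIN9 wt embryos wild-type, while the study's text gives them as Lin9 fl/+, with 1 floxed allele. Total counts per library were 9485599 to 9615274 in experiment 1 and 2770741 to 2999877 in experiment 2, so levels in experiment 2 rest on fewer counts and have a larger counting error. A figure legend of the study counts the experiments as 2 biological replicates with triplicates in each, and whether the 3 libraries of a group came from separate embryos or litters is not given in the sources used here. The p-values therefore measure only the spread between these libraries, which may be technical. The closest pairs, control replicates 2 and 3 and Sav1 KO replicates 2 and 3, had a chi-square per degree of freedom of 1.198 and 1.355 over genes with a summed count of at least 10, where 1 is sampling noise, and other pairs had 1.83 to 24.1.

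Whole-gene counts check the labels of the targeted genes only in part, because 1 floxed exon is removed from each. Lin9 had 29.8, 21.4 and 25.6 CPM (counts relative to the total of the library, after TMM scaling in edgeR) in the LIN9 wt libraries and 21.4, 21.3 and 19.2 CPM in the LIN9 KO libraries of experiment 1. In experiment 2, the control had 29.2, 28.1 and 23.2 CPM and LIN9 KO had 13.1, 15.4 and 17.9 CPM. Sav1 KO had 19.2, 31.4 and 25.6 CPM and the double KO had 23.5, 26.0 and 18.5 CPM. In experiment 2, all LIN9 KO libraries lay below the control libraries. In experiment 1 the LIN9 KO and LIN9 wt libraries nearly touched, at 21.36 CPM in LIN9 KO replicate 1 and 21.39 CPM in LIN9 wt replicate 2. Replicate 2 of both groups had 203 counts. The double KO libraries overlapped both the control and the Sav1 KO libraries, and lay above the LIN9 KO libraries of experiment 2. The log2 fold change of Lin9 was -0.31 (SE 0.14, adjusted p = 0.13, quasi-likelihood test of edgeR, Benjamini-Hochberg) in experiment 1 and -0.80 (SE 0.19, adjusted p = 0.00269, edgeR, Benjamini-Hochberg) in LIN9 KO against the control. Between the libraries labelled double KO and Sav1 KO it was -0.16 (SE 0.18, adjusted p = 0.586, edgeR, Benjamini-Hochberg), so the whole-gene count does not show the loss of Lin9 there. Every direction given for these 3 libraries rests on their labels. Of Sav1, the control had 54.5, 56.1 and 61.9 CPM and LIN9 KO had 51.9, 49.8 and 47.3 CPM. The Sav1 KO libraries had 43.0, 36.1 and 43.0 CPM and the double KO had 43.9, 40.5 and 42.3 CPM. In experiment 2, all Sav1 KO and double KO libraries were below all libraries with wild-type Sav1, with log2 fold changes of -0.50 (SE 0.12, adjusted p = 0.317, edgeR, Benjamini-Hochberg) for Sav1 KO and -0.44 (SE 0.12, adjusted p = 0.00874, edgeR, Benjamini-Hochberg) for the double KO, both against the control. Against LIN9 KO, the double KO had -0.23 (SE 0.12, adjusted p = 0.465, edgeR, Benjamini-Hochberg), not past the threshold, and LIN9 KO had -0.21 (SE 0.12, adjusted p = 0.224, edgeR, Benjamini-Hochberg) against the control. Other annotated genes cover 25.4% of the exonic length of Sav1, which can remove reads from its count.

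In LIN9 KO ventricles of both experiments, Plk1, Aurka, Nek2, Cdc20 and Ube2c were lower, and the APC/C target Pttg1 was at overlapping levels. In experiment 1, the fitted change was -39.4% for Plk1, -32.8% for Ube2c, -30.6% for Nek2, -30.2% for Aurka, -30.1% for Cdc20 and -18.6% for Foxm1. These 6 of the 10 genes were past an adjusted p of 0.05 (called), all lower, where 20.9% of all 19752 genes tested were called (4131) and 9.78% were called lower (1932). The count over all genes was 2722 without LIN9 wt replicate 3. Of the 10 genes, 5 were called under DESeq2 and when any 1 library was left out, as the call of Foxm1 was lost. The median log2 fold change of the 10 genes was -0.41, against 0.016 over all genes tested.

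LIN9 KO against the control in experiment 2 asked the same question in embryos with wild-type Sav1. Here the change was -36.4% for Aurka, -36.0% for Plk1, -29.4% for Nek2, -28.4% for Ube2c and -28.4% for Cdc20. These were 5 of the 10 genes, beside 23.2% of all 17675 genes tested (4103) and 10.5% called lower (1851). The median log2 fold change of the 10 genes was -0.44, against 0.0083 over all genes.

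Deletion of Lin9 on the Sav1 KO background, the double KO against Sav1 KO, gave lower levels of 8 of the 10 genes past the threshold. The change was -56.5% for Plk1, -49.9% for Cdc20, -48.2% for Aurka, -44.9% for Ube2c and -43.3% for Nek2. It was -30.8% for Foxm1, -26.3% for Tpx2 and -23.7% for Aurkb. Over all genes, 23.4% were called (4132) and 11.6% were called lower (2054). The median log2 fold change was -0.68 for the 10 genes and 0.032 for all genes. Against the control, 7 of the 10 genes were called lower in the double KO, namely Foxm1, Plk1, Aurka, Nek2, Tpx2, Cdc20 and Ube2c, where 20.6% of all genes were called (3648) and 9.96% were called lower (1760). Here the medians were -0.55 for the 10 genes and 0.035 for all genes. Of these 7 calls, that of Tpx2 was made under 5 and that of Foxm1 under 8 of 13 alternatives. The double KO against the control shares libraries with each of the other 2 comparisons of experiment 2 and repeats neither independently, while those 2 have no library in common and share the dispersion estimates of 1 fit.

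Deletion of Sav1 changed none of the 10 genes past the threshold. In Sav1 KO against the control, 0 of the 10 were called by edgeR, 1 had an unadjusted p under 0.05 (Cdc20), and DESeq2 called 0. Over all genes, the calls of edgeR were 0.017% (3 of 17675), 694 had an unadjusted p under 0.05, and DESeq2 called 2. In the double KO against LIN9 KO, 0 of the 10 were called by edgeR or DESeq2 and 3 had an unadjusted p under 0.05, beside 0.0113% of all genes called by edgeR (2), 11 called by DESeq2 and 2091 at an unadjusted p under 0.05. The test of the difference between both Sav1 effects, the interaction of LIN9 and Sav1, called 0 of the 10 genes and 0% of all genes with edgeR (0 of 17675), and DESeq2 called 0. An unadjusted p under 0.05 was found for 1153 genes, 6 of them among the 10. Without LIN9 KO replicate 3, the last 2 tests called 377 and 64 genes.

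**Figure D1:**
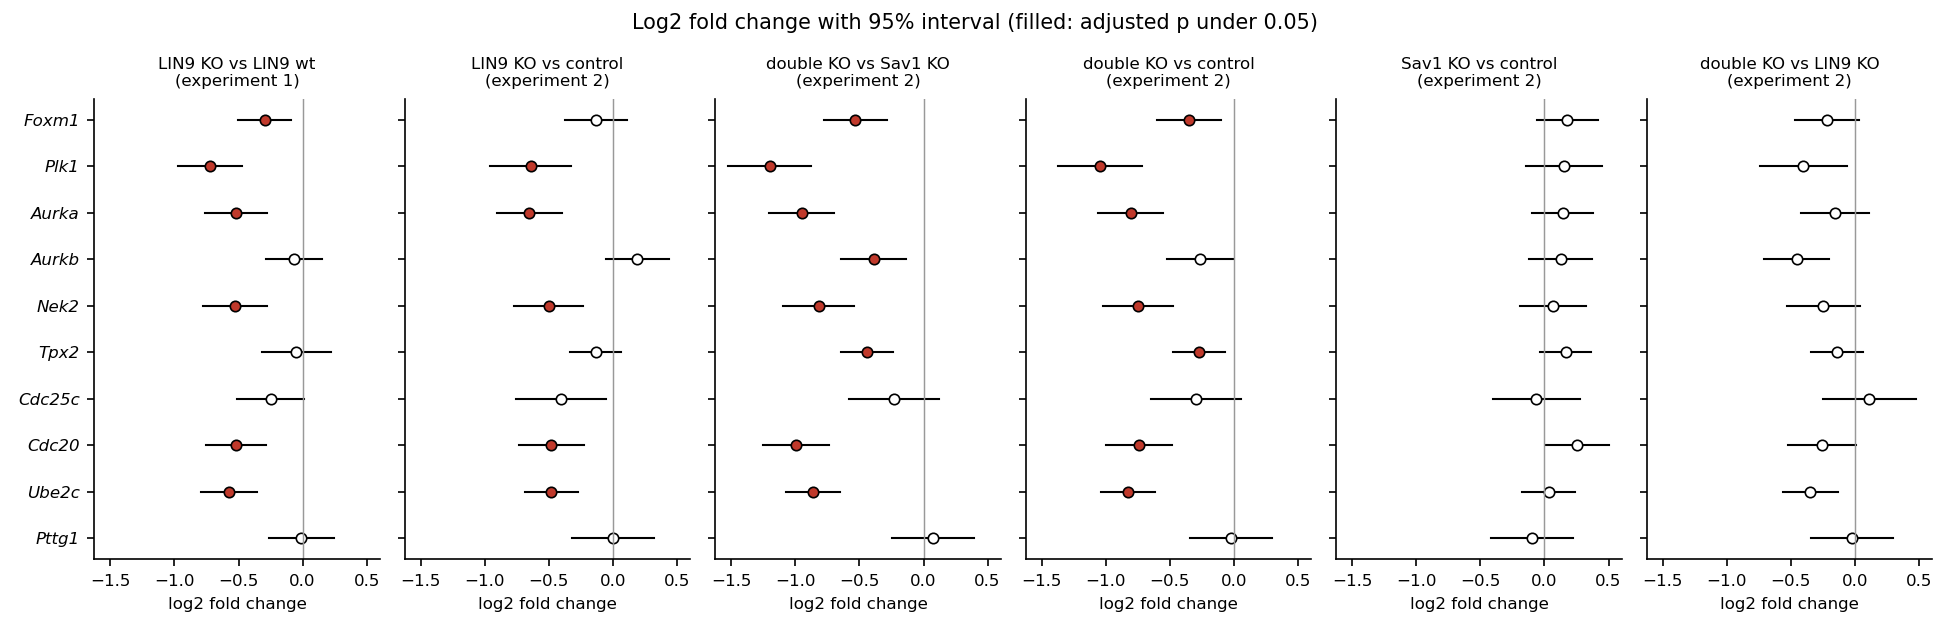
Log2 fold change (x axis) of the 10 mitotic genes (y axis) in 6 comparisons, with 95% intervals from edgeR as lines and filled points where the adjusted p is under 0.05. Plk1, Aurka, Nek2, Cdc20 and Ube2c are filled and below 0 in the first 4 panels, in which LIN9 KO or double KO is compared with LIN9 wt ventricles, and no point is filled in the last 2 panels, where Sav1 is deleted.

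FOXM1 is a forkhead transcription factor that activates genes of late G2 phase. Foxm1 (ENSMUSG00000001517, chr6:128362967-128376146, + strand of GRCm38) had 74.8, 84.6 and 80.7 CPM in LIN9 wt and 65.5, 67.0 and 63.0 CPM in LIN9 KO of experiment 1. All LIN9 KO libraries were below all LIN9 wt libraries there, a log2 fold change of -0.30 (SE 0.10, adjusted p = 0.041, quasi-likelihood test of edgeR, Benjamini-Hochberg). This call was lost when any of the 6 libraries was left out and under DESeq2, with adjusted p from 0.0569 to 0.135, and over all 12 alternatives the adjusted p ranged from 0.0221 to 0.135. In experiment 2, the control had 67.4, 74.6 and 71.2 CPM and LIN9 KO had 76.2, 62.6 and 55.1 CPM. Sav1 KO had 84.4, 79.6 and 77.4 CPM and the double KO had 53.5, 52.4 and 61.2 CPM. Here the LIN9 KO libraries spread around the control libraries, the Sav1 KO libraries were all above them and the double KO libraries were all below them. The log2 fold change was -0.13 (SE 0.12, adjusted p = 0.476, edgeR, Benjamini-Hochberg) in LIN9 KO and -0.35 (SE 0.12, adjusted p = 0.037, edgeR, Benjamini-Hochberg) in the double KO, both against the control. The latter call was lost under DESeq2 and without double KO replicate 1 or 2 or control replicate 2 or 3 (adjusted p from 0.0584 to 0.102, and 0.0223 to 0.102 over all 13 alternatives). Against Sav1 KO, the double KO was lower by a larger amount, with a log2 fold change of -0.53 (SE 0.12, adjusted p = 0.00147, edgeR, Benjamini-Hochberg), which was past the threshold under all 13 alternatives. Between Sav1 KO and the control the log2 fold change was 0.18 (SE 0.12, adjusted p = 0.999, edgeR, Benjamini-Hochberg), although the libraries of the 2 groups did not overlap.

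Plk1 (ENSMUSG00000030867, chr7:122159439-122169873, + strand) encodes polo-like kinase 1, which acts at centrosomes, kinetochores and the cleavage site. Its level was 60.1, 71.7 and 54.6 CPM in LIN9 wt and 36.6, 40.8 and 35.5 CPM in LIN9 KO libraries of experiment 1. The control of experiment 2 had 64.8, 51.0 and 54.6 CPM and LIN9 KO had 42.4, 34.4 and 32.04 CPM. Its level in Sav1 KO was 73.0, 61.1 and 55.6 CPM and the double KO had 28.6, 20.8 and 33.1 CPM. Every library of a LIN9 KO or double KO group was below every LIN9 wt library of its experiment, while Sav1 KO overlapped the control and the double KO overlapped LIN9 KO. The log2 fold change was -0.72 (SE 0.12, adjusted p = 0.000453, quasi-likelihood test of edgeR, Benjamini-Hochberg) in experiment 1. It was -0.64 (SE 0.15, adjusted p = 0.00247, edgeR, Benjamini-Hochberg) in LIN9 KO against the control and -1.20 (SE 0.16, adjusted p = 1.9e-06, edgeR, Benjamini-Hochberg) in the double KO against Sav1 KO. These values rest on 338, 389 and 345 counts in the LIN9 KO libraries of experiment 1 and on 84, 59 and 93 counts in the double KO libraries. A pseudogene, Plk-ps1, shares with Gm44985 the 10.4% of 50-base stretches of Plk1 transcripts that occur in other genes, and it had 41 to 80 counts in experiment 1 and 10 to 28 in experiment 2, so a few of the reads are uncertain as to the copy.

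Aurka (ENSMUSG00000027496, chr2:172356190-172370535, - strand) encodes Aurora A, the kinase of spindle poles. In experiment 1 it had 76.9, 87.5 and 65.5 CPM in LIN9 wt and 52.3, 56.9 and 51.3 CPM in LIN9 KO libraries. Among the libraries of experiment 2, the control had 67.1, 59.9 and 53.9 CPM and LIN9 KO had 39.1, 38.3 and 37.6 CPM. The Sav1 KO libraries had 66.3, 69.5 and 64.1 CPM and the double KO had 33.0, 32.03 and 38.4 CPM. The LIN9 KO and double KO groups again lay wholly below the groups with wild-type LIN9, and the LIN9 KO libraries of experiment 2 were close to each other. The log2 fold changes were -0.52 (SE 0.11, adjusted p = 0.00431, quasi-likelihood test of edgeR, Benjamini-Hochberg) in experiment 1 and -0.65 (SE 0.12, adjusted p = 0.000215, edgeR, Benjamini-Hochberg) in LIN9 KO against the control. For the double KO the values were -0.95 (SE 0.12, adjusted p = 1.57e-06, edgeR, Benjamini-Hochberg) against Sav1 KO and -0.81 (SE 0.12, adjusted p = 2.31e-05, edgeR, Benjamini-Hochberg) against the control. No other annotated gene overlaps the exons of Aurka.

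Tpx2 (ENSMUSG00000027469, chr2:152847964-152895321, + strand), which encodes the activator of Aurora A, was not past the threshold in LIN9 KO of either experiment. It had 146, 153 and 109 CPM in LIN9 wt and 129, 143 and 121 CPM in LIN9 KO of experiment 1, with overlapping libraries and a log2 fold change of -0.049 (SE 0.13, adjusted p = 0.84, edgeR, Benjamini-Hochberg). In the other experiment, the control had 128, 133 and 134 CPM and LIN9 KO had 125, 114 and 120.3 CPM. Sav1 KO had 152, 157 and 134 CPM and the double KO had 109, 104 and 114 CPM. The LIN9 KO libraries were all below the control here, but the log2 fold change of -0.14 (SE 0.10, adjusted p = 0.36, edgeR, Benjamini-Hochberg) was not past the threshold. In the double KO, Tpx2 was lower than in Sav1 KO with -0.44 (SE 0.10, adjusted p = 0.00142, edgeR, Benjamini-Hochberg), a call made under all 13 alternatives. Against the control the value was -0.27 (SE 0.10, adjusted p = 0.0484, edgeR, Benjamini-Hochberg). That call was made under 5 of 13 alternatives, with adjusted p from 0.0409 to 0.127, and it was lost without double KO replicate 2 (0.113), control replicate 1 (0.0664), 2 (0.0883) or 3 (0.127, all edgeR with Benjamini-Hochberg adjustment). With edgeR it was also lost with library size alone (0.0543), no filter (0.0666) and the 6 libraries of the comparison alone (0.0501). DESeq2 lost it as well (0.102 after Benjamini-Hochberg adjustment).

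Aurora B, the kinase of the chromosomal passenger complex, is encoded by Aurkb (ENSMUSG00000020897, chr11:69045647-69051664, + strand). In experiment 1 the LIN9 wt libraries had 58.9, 56.9 and 54.5 CPM and the LIN9 KO libraries 49.2, 54.6 and 58.8 CPM, which overlapped (log2 fold change -0.066 (SE 0.10, adjusted p = 0.715, edgeR, Benjamini-Hochberg)). The control of experiment 2 had 50.8, 46.2 and 53.9 CPM and LIN9 KO had 63.0, 59.0 and 49.9 CPM. Sav1 KO had 53.8, 54.0 and 56.9 CPM and the double KO had 42.2, 44.7 and 38.8 CPM. The double KO libraries were below all other libraries of the experiment, while LIN9 KO and the control overlapped, with a log2 fold change of 0.19 (SE 0.12, adjusted p = 0.288, edgeR, Benjamini-Hochberg). Aurkb was lower in the double KO than in Sav1 KO, with -0.39 (SE 0.12, adjusted p = 0.0217, quasi-likelihood test of edgeR, Benjamini-Hochberg). This call was lost under DESeq2 (0.0806 after Benjamini-Hochberg adjustment) and with edgeR without double KO replicate 3 (0.0759) or Sav1 KO replicate 3 (0.08), with 0.0148 to 0.0806 over the 13 alternatives. Against LIN9 KO, the double KO had a log2 fold change of -0.45 (SE 0.12, adjusted p = 0.138, edgeR, Benjamini-Hochberg), which passed the threshold only without LIN9 KO replicate 3 (0.025) among the alternatives run (0.025 to 0.463). The interaction of LIN9 and Sav1 on Aurkb was -0.58 (SE 0.17, adjusted p = 0.68, edgeR, Benjamini-Hochberg).

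Nek2 (ENSMUSG00000026622, chr1:191821444-191833050, + strand) encodes a kinase that loosens the link between the centrosomes before mitosis. It had 49.6, 56.8 and 43.1 CPM in LIN9 wt and 32.8, 34.0 and 36.9 CPM in LIN9 KO of experiment 1. The experiment 2 control had 47.8, 46.9 and 42.9 CPM and LIN9 KO had 31.8, 32.1 and 33.2 CPM. Sav1 KO had 52.8, 46.6 and 45.0 CPM and the double KO had 24.2, 30.6 and 27.0 CPM. The libraries with deleted Lin9 were below those without in each experiment, and the double KO libraries were below the LIN9 KO libraries. Log2 fold changes were -0.53 (SE 0.12, adjusted p = 0.00464, quasi-likelihood test of edgeR, Benjamini-Hochberg) in experiment 1 and -0.50 (SE 0.13, adjusted p = 0.0054, edgeR, Benjamini-Hochberg) in LIN9 KO against the control. Against Sav1 KO, the double KO had -0.82 (SE 0.13, adjusted p = 3.84e-05, edgeR, Benjamini-Hochberg). Between the double KO and LIN9 KO, the log2 fold change was -0.25 (SE 0.14, adjusted p = 0.503, edgeR, Benjamini-Hochberg), not past the threshold.

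The phosphatase gene Cdc25c (ENSMUSG00000044201) was counted at low levels. Its LIN9 KO libraries of experiment 1 (19.2, 19.8 and 21.2 CPM) were all below the LIN9 wt libraries (22.5, 25.8 and 23.3 CPM), with a log2 fold change of -0.25 (SE 0.12, adjusted p = 0.176, edgeR, Benjamini-Hochberg). In experiment 2, the control had 20.3, 25.0 and 27.0 CPM and LIN9 KO had 15.8, 20.3 and 18.3 CPM. Sav1 KO had 21.5, 24.3 and 23.2 CPM and the double KO had 16.7, 21.8 and 20.3 CPM. In experiment 2 each group overlapped with at least 1 other. The log2 fold change of LIN9 KO against the control was -0.41 (SE 0.17, adjusted p = 0.0878, edgeR, Benjamini-Hochberg), and it was past the threshold without control replicate 1 (0.0379, with 0.0379 to 0.288 over the 13 alternatives). It had 49, 62 and 57 counts in the double KO libraries, so its counting error is large there. Other genes (259 in all, among them Gm3550) share 11.9% of its 50-base stretches. Gm3550 lies over 12.7% of the exonic length of Cdc25c on the opposite strand.

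Cdc20 (ENSMUSG00000006398, chr4:118432901-118437352, - strand) encodes the activator that lets the APC/C recognise its targets at the start of anaphase. Experiment 1 gave 78.7, 92.5 and 72.2 CPM in LIN9 wt and 53.6, 57.6 and 58.9 CPM in LIN9 KO. The control of experiment 2 had 78.1, 62.3 and 69.5 CPM and LIN9 KO had 59.1, 45.6 and 45.5 CPM. Sav1 KO libraries reached 82.1, 85.0 and 83.9 CPM and the double KO had 42.2, 38.01 and 45.5 CPM. Sav1 KO was above the control in all libraries, and LIN9 KO and the double KO were below it. The log2 fold change was -0.52 (SE 0.11, adjusted p = 0.0033, quasi-likelihood test of edgeR, Benjamini-Hochberg) in experiment 1 and -0.48 (SE 0.12, adjusted p = 0.00467, edgeR, Benjamini-Hochberg) in LIN9 KO against the control. The double KO had -0.996 (SE 0.12, adjusted p = 8.47e-07, edgeR, Benjamini-Hochberg) against Sav1 KO. For Sav1 KO against the control it was 0.26 (SE 0.12, adjusted p = 0.999, edgeR, Benjamini-Hochberg), with a 95% interval of 0.015 to 0.50. The interaction of LIN9 and Sav1 on Cdc20 was -0.51 (SE 0.18, adjusted p = 0.68, edgeR, Benjamini-Hochberg). Gm7856, which shares stretches of sequence with Cdc20, had 40 to 91 counts in experiment 1 and 8 to 23 in experiment 2, and 10.6% of the 50-base stretches of Cdc20 occur in other genes.

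Ube2c (ENSMUSG00000001403, chr2:164769898-164778822, + strand) encodes the E2 enzyme that places the first ubiquitin on APC/C targets. Its level was 169.6, 187 and 171 CPM in LIN9 wt and 113, 113 and 128 CPM in LIN9 KO of experiment 1. In experiment 2, the control had 171, 149 and 145 CPM and LIN9 KO had 121, 103 and 109 CPM. Sav1 KO had 161, 155 and 159 CPM and the double KO had 83.1, 88.3 and 90.3 CPM. The 3 double KO libraries were the lowest of experiment 2 and did not overlap the LIN9 KO libraries, which in turn lay below the control and Sav1 KO. The log2 fold change was -0.57 (SE 0.10, adjusted p = 0.000917, quasi-likelihood test of edgeR, Benjamini-Hochberg) in experiment 1 and -0.48 (SE 0.10, adjusted p = 0.000703, edgeR, Benjamini-Hochberg) in LIN9 KO against the control. In the double KO it was -0.86 (SE 0.10, adjusted p = 3.7e-07, edgeR, Benjamini-Hochberg) against Sav1 KO and -0.35 (SE 0.10, adjusted p = 0.164, edgeR, Benjamini-Hochberg) against LIN9 KO. The last of these was not past the threshold. The skeletal muscle gene Tnnc2 lies over 22.8% of the exonic length of Ube2c on the opposite strand, and it was at 0 counts in all libraries but 1, where it had 1. Of the 50-base stretches of Ube2c, 16.0% occur in other genes (125 in all), the highest share of the 10, so a part of its reads is uncertain as to the gene.

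Pttg1 (ENSMUSG00000020415, chr11:43420250-43426251, - strand) encodes securin, the inhibitor of separase that the APC/C removes. It had 30.4, 33.4 and 28.2 CPM in LIN9 wt and 33.1, 26.9 and 31.4 CPM in LIN9 KO of experiment 1. The control of experiment 2 had 22.9, 24.7 and 23.8 CPM and LIN9 KO had 24.6, 22.9 and 23.8 CPM. Sav1 KO had 18.8, 22.9 and 24.9 CPM and the double KO had 24.9, 24.3 and 21.0 CPM. All groups overlapped within their experiment. In LIN9 KO the 95% interval of its log2 fold change was -0.26 to 0.25 in experiment 1 and -0.32 to 0.32 in experiment 2, with adjusted p of 0.975 and 1 from edgeR with Benjamini-Hochberg adjustment. Pttg1 had no call in any of the 7 tests, under the main settings or under any alternative that was run.

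**Figure D2:**
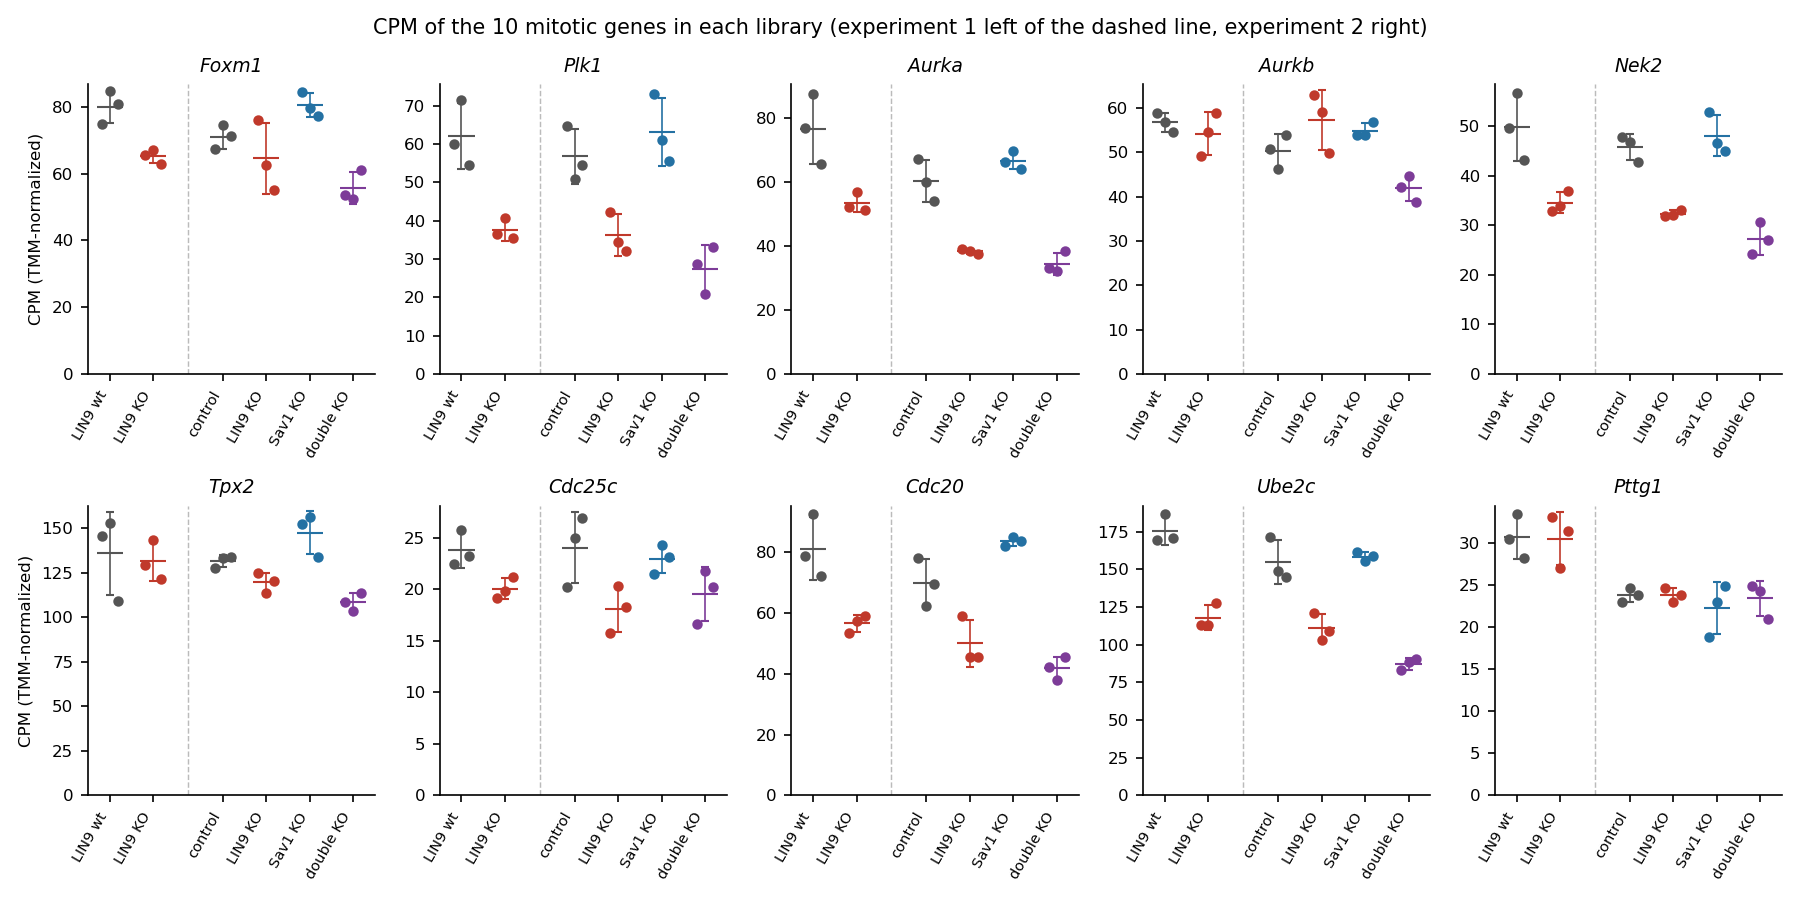
TMM-normalized CPM (y axis, from 0) of each mitotic gene in every library, with points for the 3 libraries of a group, a line for their mean and bars for the SD, experiment 1 left and experiment 2 right of the dashed line. The LIN9 KO and double KO points of Plk1, Aurka, Nek2, Cdc20 and Ube2c lie below those of the LIN9 wt groups of the same experiment, and the points of Pttg1 overlap in all groups.

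These are bulk libraries, in which fewer dividing cells and less RNA per dividing cell cannot be told apart. Ratios between genes within a library do not depend on its scaling, and they differed between genotypes where the genes changed unequally. All ratios here are of levels divided by the exonic length of each gene, and not of raw counts. The ratios of Aurka per Aurkb were 1.52, 1.79 and 1.399 in LIN9 wt and 1.24, 1.21 and 1.02 in LIN9 KO of experiment 1. They were 1.54, 1.51 and 1.16 in the control, 0.721, 0.757 and 0.877 in LIN9 KO, 1.43, 1.499 and 1.31 in Sav1 KO and 0.911, 0.834 and 1.15 in the double KO. This ratio was lower in every LIN9 KO and double KO library than in every library with wild-type LIN9 of the same experiment. Aurka per Tpx2 went from 0.975, 1.06 and 1.11 in LIN9 wt to 0.746, 0.734 and 0.781 in LIN9 KO of experiment 1. In experiment 2 it went from 0.972, 0.831 and 0.745 in the control to 0.579, 0.623 and 0.578 in LIN9 KO and 0.562, 0.570 and 0.624 in the double KO. Among anaphase regulators, Cdc20 per Pttg1 was 2.77, 2.97 and 2.75 in LIN9 wt and 1.73, 2.29 and 2.01 in LIN9 KO of experiment 1. In experiment 2 it was 3.65, 2.71 and 3.12 in the control, 2.57, 2.13 and 2.04 in LIN9 KO, 4.67, 3.97 and 3.61 in Sav1 KO and 1.82, 1.68 and 2.32 in the double KO. The Sav1 KO ratios overlapped the control at the lower end, and the LIN9 KO and double KO ratios lay below the control. Ube2c per Pttg1 was 4.29, 4.30 and 4.67 in LIN9 wt against 2.64, 3.23 and 3.13 in LIN9 KO of experiment 1. The same ratio was 5.75, 4.64 and 4.67 in the control against 3.77, 3.45 and 3.52 in LIN9 KO and 2.57, 2.80 and 3.31 in the double KO of experiment 2. The ratios are descriptions, for which no test was run.

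Levels of different genes were compared per kilobase of exon (CPM per kb), since longer transcripts collect more reads. The length is that of the joined exons of all annotated transcripts of a gene, and not of the transcript expressed. The order of genes can depend on this choice. In LIN9 wt of experiment 1, Ube2c had the highest level with 67.6 ± 3.70 CPM per kb (SD, n = 3), followed by Cdc20 with 43.4 ± 5.56. Next came Aurka (30.3 ± 4.33 CPM per kb), Tpx2 (29.1 ± 5.01) and Plk1 (28.3 ± 3.95), which did not differ beyond their SDs. Below them were Aurkb with 19.3 ± 0.743 CPM per kb, Pttg1 with 15.3 ± 1.32 and Foxm1 with 13.9 ± 0.863, of which the last pair was within its SDs. Nek2 (11.04 ± 1.52 CPM per kb) and Cdc25c (4.85 ± 0.357) were the lowest. Ube2c stood first, Nek2 ninth and Cdc25c last in all 6 groups. In LIN9 KO of experiment 2, Aurkb (19.5 ± 2.28 CPM per kb) stood above Plk1 (16.49 ± 2.46) and Aurka (15.2 ± 0.285), while in the control it stood below both, with 17.1 ± 1.32 against 25.8 ± 3.25 and 23.8 ± 2.61 CPM per kb. Aurkb and Plk1 were within their SDs in this LIN9 KO group. The order of Aurkb and Aurka was not reversed in LIN9 KO of experiment 1, with 21.1 ± 1.19 CPM per kb for Aurka, 18.4 ± 1.63 for Aurkb and 17.1 ± 1.27 for Plk1. In the double KO the levels were 13.6 ± 1.35 CPM per kb for Aurka, 14.2 ± 1.01 for Aurkb and 12.5 ± 2.83 for Plk1, which were within their SDs. Tpx2 in the double KO, with 23.3 ± 1.06 CPM per kb, was at the level of Cdc20 (22.4 ± 2.01).

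**Figure D3:**
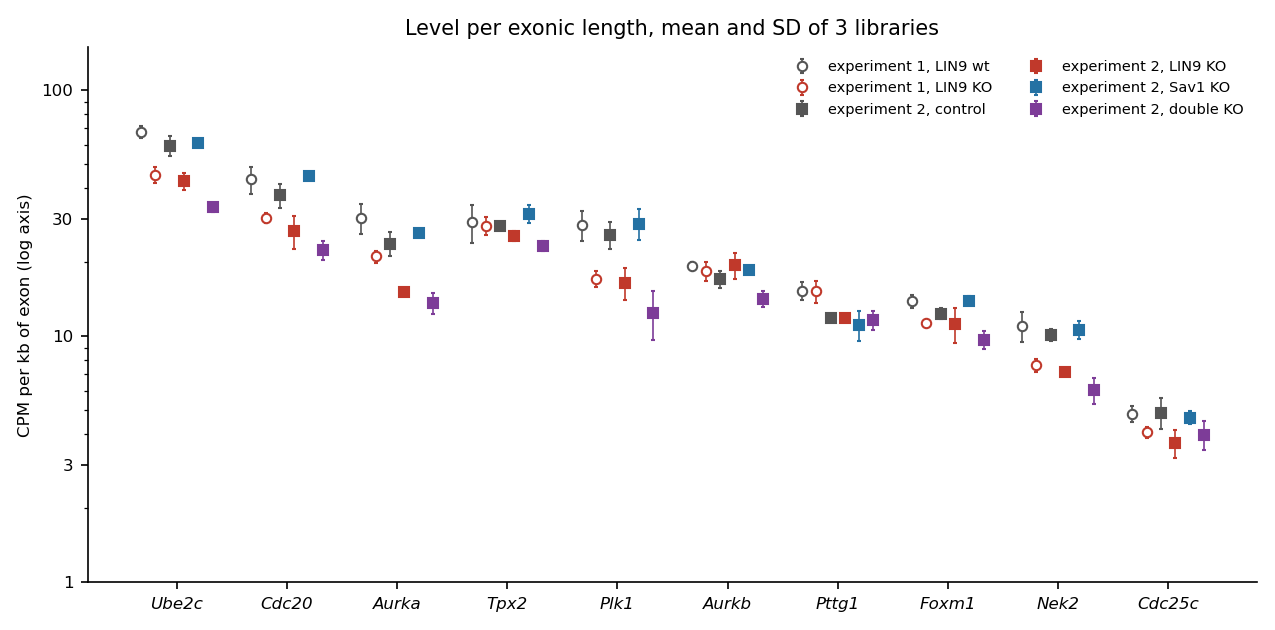
Level per exonic length (CPM per kb, log axis) of the 10 mitotic genes, as mean and SD of 3 libraries for each of the 6 groups, with open circles for experiment 1 and filled squares for experiment 2. Ube2c is the highest and Cdc25c the lowest gene in every group.

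The mean log2 CPM of the 10 genes, relative to the mean of LIN9 wt or the control in the same experiment, gives each library 1 value. It was -0.38, -0.33 and -0.33 in LIN9 KO and -0.012, 0.14 and -0.13 in LIN9 wt of experiment 1. In experiment 2 it was -0.23, -0.35 and -0.39 in LIN9 KO, -0.57, -0.56 and -0.47 in the double KO, 0.11, 0.11 and 0.069 in Sav1 KO and 0.034, -0.025 and -0.0093 in the control. LIN9 KO libraries were below, double KO libraries lower still, and Sav1 KO libraries above the control, with no overlap between the 4 groups of experiment 2. How often means of other genes separate in this way was not tested. Of the single genes, only Foxm1 and Cdc20 had all Sav1 KO libraries above the control, and neither was called there. Over the 18 libraries, the correlation of a gene with the mean of the other 9 (log2 CPM centred within each experiment) was 0.972 for Cdc20, 0.963 for Ube2c, 0.963 for Aurka, 0.947 for Plk1, 0.947 for Nek2 and 0.882 for Foxm1. It was 0.755 for Tpx2, 0.594 for Cdc25c, 0.468 for Aurkb and -0.142 for Pttg1. Of 11989 genes outside all lists, those with the highest Pearson correlation with the mean of the 10 were Racgap1 (0.9817, Spearman's rho 0.9732), Ywhae (0.9774), Ncapd2 (0.9653), Isyna1 (0.9643) and Gm11223 (0.9637). RACGAP1 is a part of the central spindle, Ncapd2 encodes a condensin subunit, and Ywhae encodes a 14-3-3 protein. The points share the genotype differences and are no independent samples of 1 group, so these correlations are descriptions with no test.

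Many promoters that MuvB complexes bind carry a CHR element, often with CCAAT boxes upstream that bind NF-Y. RefSeq promoters (GRCm38.p6, 250 bases before to 50 after the start) were at hand for 6 of the 10 genes, Aurka, Cdc20, Nek2, Plk1, Pttg1 and Ube2c. No promoter of Foxm1, Aurkb, Tpx2 or Cdc25c was found in the set used here, so these genes were not searched. The CHR letters TTTGAA or TTCGAA, searched on both strands, were in 4 of the 6, Aurka, Cdc20, Plk1 and Ube2c, beside 19.2% of all 32851 promoters in the same table. CCAAT on either strand was in 5 of the 6, all but Pttg1, beside 37.4% of all promoters, and both were in 4 of the 6, beside 7.53%. Pttg1, whose level overlapped in all groups, had neither set of letters in its window. Windows of 30 bases around the CHR letters, and around CCAAT for Nek2, which was also lower in LIN9 KO but has no CHR letters here, are printed 5′ to 3′ along the gene's strand, with those CHR letters, or CCAAT for Nek2, in capitals.
Plk1 (chr7:122159453-122159482, + strand): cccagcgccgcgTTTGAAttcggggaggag
Aurka (chr2:172370521-172370550, - strand): aaaaggagaaccTTTGAAttgtaacggctg
Cdc20 (chr4:118437344-118437373, - strand): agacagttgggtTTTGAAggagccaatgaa
Ube2c (chr2:164769888-164769917, + strand): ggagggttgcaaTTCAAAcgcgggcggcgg
Nek2 (chr1:191821435-191821464, + strand): gtgttttctcagCCAATcagagttgagatg
The Cdc20 window also holds CCAAT, at -8 from the start, in lower case. In Ube2c the letters TTCAAA are TTTGAA on the other strand. With the RefSeq start as position 0, the CHR letters began at -29 in Ube2c, at -18 in Cdc20, at 30 in Plk1 and at 32 in Aurka. The RefSeq starts differ from the GENCODE gene bounds given above, by which the letters of Ube2c lie inside the gene and those of Aurka span its start. CCAAT letters in Nek2 began at -26 and 7. A match is a description of letters and no measured binding site, and no match says only that these letters are not in the window.

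Other genes of the same pathways were given by 7 lists. Their calls stand beside 20.9% of all genes called in LIN9 KO of experiment 1 (9.78% called lower), 23.2% in LIN9 KO against the control (10.5%) and 23.4% in the double KO against Sav1 KO (11.6%). Of 11 tested genes of mitotic entry control, 4 were called lower and 1 was called higher in LIN9 KO of experiment 1 (median log2 fold change -0.063), 3 were called lower in LIN9 KO against the control (-0.19) and 4 were called lower in the double KO against Sav1 KO (-0.25). Ccnb1, which encodes cyclin B1, had 117 ± 5.25 CPM in LIN9 wt and 61.7 ± 8.53 CPM in LIN9 KO of experiment 1. In experiment 2 there were 98.7 ± 4.64 CPM in the control and 51.0 ± 3.76 CPM in LIN9 KO (SD, n = 3). Its log2 fold change was -0.92 (SE 0.11, adjusted p = 4.28e-05, edgeR, Benjamini-Hochberg) in experiment 1 and -0.95 (SE 0.11, adjusted p = 2.38e-07, edgeR, Benjamini-Hochberg) in experiment 2. Cyclin A2, from Ccna2, fell by 0.82 on the log2 scale in experiment 1 (edgeR, Benjamini-Hochberg adjusted p = 8.44e-05) and by 0.90 in LIN9 KO against the control (1.67e-07). Mastl, which encodes the Greatwall kinase, was higher in experiment 1 with 0.43 (SE 0.14, adjusted p = 0.0381, edgeR, Benjamini-Hochberg), and had 0.26 (SE 0.20, adjusted p = 0.401, edgeR, Benjamini-Hochberg) in LIN9 KO against the control. It was also called higher in the double KO against the control, with 0.62 (SE 0.20, adjusted p = 0.0277, edgeR, Benjamini-Hochberg).

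Among 11 tested Aurora and PLK1 partners and other mitotic kinases, 3 were called lower and 1 higher in experiment 1, 2 were called lower in LIN9 KO against the control and 3 in the double KO against Sav1 KO, with medians of -0.043, -0.17 and -0.19. Cdca8, which encodes borealin, a partner of Aurora B, had log2 fold changes of -0.50 (SE 0.10, adjusted p = 0.00326, edgeR, Benjamini-Hochberg) and -0.66 (SE 0.11, adjusted p = 4.58e-05, edgeR, Benjamini-Hochberg) in LIN9 KO of the 2 experiments. Hmmr, a spindle protein gene, had -0.59 (SE 0.12, adjusted p = 0.00291, edgeR, Benjamini-Hochberg) and -0.71 (SE 0.24, adjusted p = 0.0555, edgeR, Benjamini-Hochberg). Ttk, which encodes the checkpoint kinase MPS1, was higher in LIN9 KO of experiment 1 with 0.64 (SE 0.16, adjusted p = 0.0102, edgeR, Benjamini-Hochberg), and in LIN9 KO against the control it had 0.65 (SE 0.24, adjusted p = 0.0721, edgeR, Benjamini-Hochberg). In the double KO against the control, 3 of the 11 were called lower and 1 higher, beside 20.6% of all genes called, with Ttk at 0.86 (SE 0.23, adjusted p = 0.0221, edgeR, Benjamini-Hochberg).

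Of the 14 core subunits of the APC/C, 1 was called lower and 1 higher in LIN9 KO of each experiment (20.9% and 23.2% of all genes called), with medians of -0.014 and -0.012. Anapc13 was lower with -0.30 (SE 0.10, adjusted p = 0.0398, edgeR, Benjamini-Hochberg) and -0.42 (SE 0.13, adjusted p = 0.0227, edgeR, Benjamini-Hochberg), and Cdc16 was higher with 0.35 (SE 0.11, adjusted p = 0.0292, edgeR, Benjamini-Hochberg) and 0.34 (SE 0.10, adjusted p = 0.0124, edgeR, Benjamini-Hochberg). In the double KO against Sav1 KO, 1 was called lower and 3 were called higher (23.4% of all genes called), with a median of 0.034. Of 5 tested genes for the other APC/C coactivator, E2 enzyme and inhibitors, 2 were called lower in LIN9 KO of each experiment and 4 in the double KO against Sav1 KO, with medians of -0.23, -0.28 and -0.49. Ube2s, which encodes the E2 enzyme that extends ubiquitin chains after UBE2C, had -0.38 (SE 0.11, adjusted p = 0.0189, edgeR, Benjamini-Hochberg) in experiment 1 and -0.34 (SE 0.11, adjusted p = 0.0198, edgeR, Benjamini-Hochberg) in experiment 2. Fzr1, whose product CDH1 takes over from CDC20, had -0.35 (SE 0.10, adjusted p = 0.0204, edgeR, Benjamini-Hochberg) and -0.25 (SE 0.11, adjusted p = 0.0864, edgeR, Benjamini-Hochberg). For Bub1b, a gene of the mitotic checkpoint, the values were -0.23 (SE 0.13, adjusted p = 0.24, edgeR, Benjamini-Hochberg) and -0.28 (SE 0.091, adjusted p = 0.0254, edgeR, Benjamini-Hochberg).

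Of 12 genes for cohesin and for separase, which securin holds in check, 1 was called lower in LIN9 KO of each experiment (9.78% and 10.5% of all genes), with medians of 0.10 and -0.17. In the double KO against Sav1 KO, 2 were called lower (-0.067). The cohesin subunit gene Rad21 had -0.45 (SE 0.11, adjusted p = 0.00968, edgeR, Benjamini-Hochberg) in experiment 1 and -0.28 (SE 0.094, adjusted p = 0.0291, edgeR, Benjamini-Hochberg) in experiment 2. Among 9 genes for B-MYB, the MuvB core and DREAM partners, 1 was called lower in experiment 1 (median -0.062) and 3 in LIN9 KO against the control (-0.28). Rbl1, which encodes the pocket protein p107, had -0.38 (SE 0.12, adjusted p = 0.0324, edgeR, Benjamini-Hochberg) and -0.48 (SE 0.11, adjusted p = 0.00156, edgeR, Benjamini-Hochberg), while E2f4 had -0.43 (SE 0.14, adjusted p = 0.0234, edgeR, Benjamini-Hochberg) and Tfdp1 -0.31 (SE 0.11, adjusted p = 0.0461, edgeR, Benjamini-Hochberg) in experiment 2. Neither E2f4 (-0.13, SE 0.094, adjusted p = 0.398, edgeR, Benjamini-Hochberg) nor Tfdp1 (-0.062, SE 0.096, adjusted p = 0.714, edgeR, Benjamini-Hochberg) was past the threshold in experiment 1. Of 10 tested paralogues of the mitotic genes, 2 were called lower and 2 higher in experiment 1 (median 0.064), and 0 were called lower and 2 higher in LIN9 KO against the control (0.27). Plk2 had 0.55 (SE 0.10, adjusted p = 0.00135, edgeR, Benjamini-Hochberg) and 0.51 (SE 0.10, adjusted p = 0.000479, edgeR, Benjamini-Hochberg), and Nek6 had 0.52 (SE 0.10, adjusted p = 0.00164, edgeR, Benjamini-Hochberg) and 0.77 (SE 0.12, adjusted p = 1.48e-05, edgeR, Benjamini-Hochberg). Nek8 was lower in experiment 1 with -0.47 (SE 0.13, adjusted p = 0.0178, edgeR, Benjamini-Hochberg). Its value of -0.43 (SE 0.20, adjusted p = 0.12, edgeR, Benjamini-Hochberg) in LIN9 KO against the control was not past the threshold. In the tests of Sav1 deletion and in the interaction, no gene of the 7 lists was called, beside 694, 2091 and 1153 genes of all tested at an unadjusted p under 0.05 and 2, 11 and 0 called by DESeq2. Wee1, Bub3 and Haspin were listed at 0 counts in all 18 libraries and Aurkc at no more than 2, so these 4 were not tested. A listed count of 0 does not by itself show that a gene is not expressed.

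**Figure D4:**
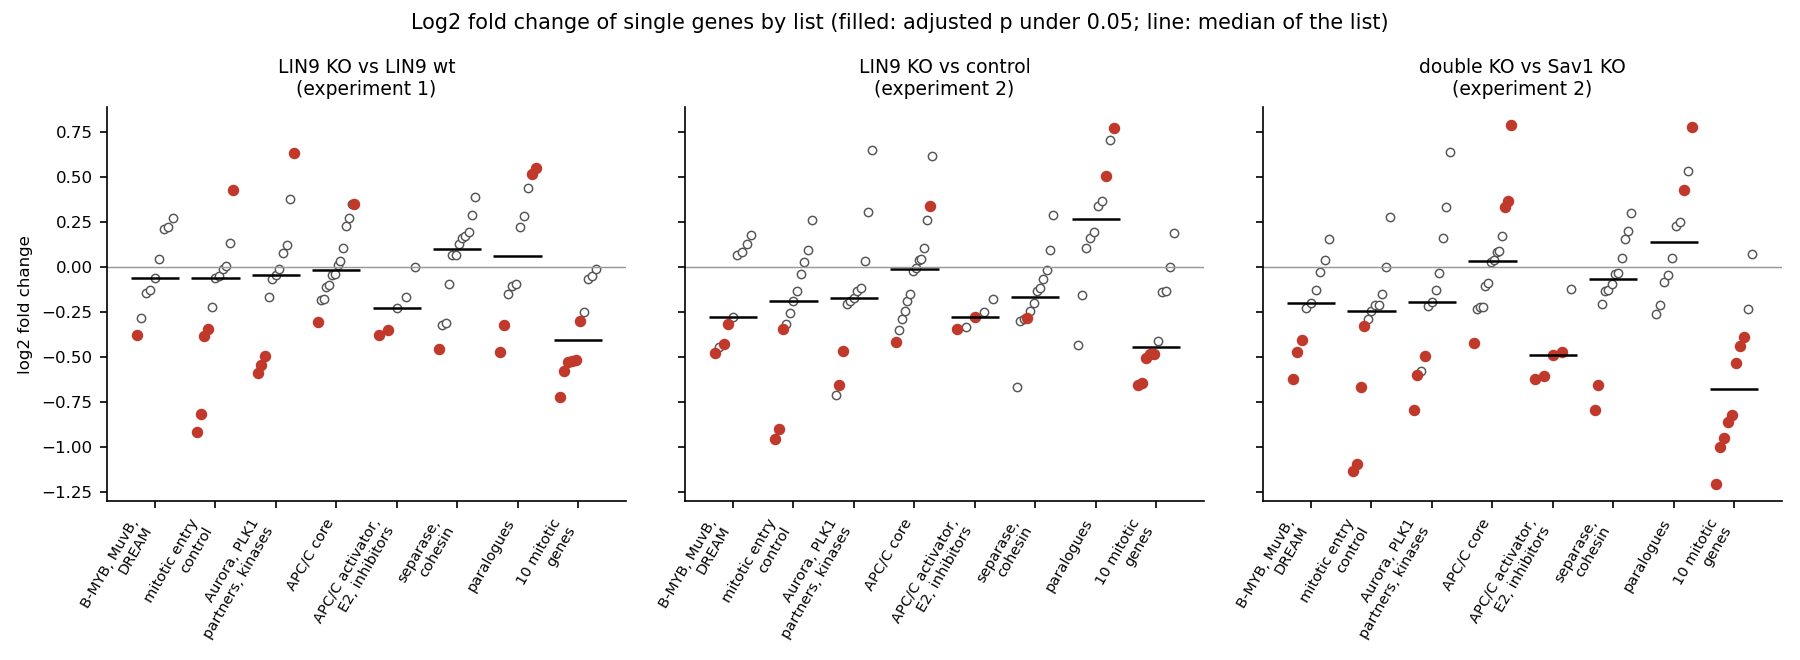
Log2 fold change (y axis) of each tested gene of the 7 pathway lists and of the 10 mitotic genes in 3 comparisons, with filled points where the adjusted p is under 0.05 and a line at the median of each list. Cyclin genes are the lowest points of mitotic entry control, and the genes of the APC/C core lie on both sides of 0.

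Markers of 7 cell types were summed in the same libraries, and their calls stand beside the same shares of all genes, 20.9%, 23.2% and 23.4%. The summed level of 8 cardiomyocyte markers was 18032, 18882 and 17955 CPM in LIN9 wt and 8717, 12037 and 8121 CPM in LIN9 KO of experiment 1. In experiment 2 the sum was 19935, 19499 and 19477 CPM in the control and 11736, 10458 and 9413 CPM in LIN9 KO, and it was 21463, 20408 and 21260.0 CPM in Sav1 KO and 9319, 10955 and 11926 CPM in the double KO. All 8 were lower in LIN9 KO and 6 of them were called lower in each experiment (median log2 fold changes -0.76 and -0.74), as were 6 in the double KO against Sav1 KO (-0.87). Myh7, Tnnt2 or Myl2 was the most abundant of them, and no marker was at 0, so the libraries hold ventricular muscle. The 7 fibroblast and mesenchyme markers, led by Col3a1, summed to 2583, 2333 and 2263 CPM in LIN9 wt and 4645, 5056 and 4967 CPM in LIN9 KO of experiment 1. The sum in experiment 2 was 3043, 3187 and 2958 CPM in the control and 6580.3, 6675 and 5269 CPM in LIN9 KO, and it was 3084, 3463 and 2914 CPM in Sav1 KO and 5303, 5962 and 6814 CPM in the double KO. All 7 were higher, of which 6 were called in LIN9 KO of each experiment and 7 in the double KO against Sav1 KO.

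The 6 epicardial markers, with Upk3b, Tbx18 or Wt1 the most abundant, summed to 284, 262 and 265 CPM in LIN9 wt and 480.1, 446 and 526 CPM in LIN9 KO of experiment 1. For experiment 2 their sum was 233, 242 and 249.6 CPM in the control and 427, 415 and 514 CPM in LIN9 KO, and it was 205, 232 and 256 CPM in Sav1 KO and 404, 422 and 419.9 CPM in the double KO, with 5 called higher in LIN9 KO of each experiment. The 7 macrophage markers, led by Csf1r, summed to 58.9, 64.6 and 67.1 CPM in LIN9 wt and 127, 145 and 132 CPM in LIN9 KO of experiment 1. In the other experiment their sum was 72.8, 71.2 and 70.5 CPM in the control and 168, 142 and 140.5 CPM in LIN9 KO, and it was 60.2, 61.8 and 68.5 CPM in Sav1 KO and 144, 175 and 185 CPM in the double KO, with 7 called higher in experiment 1 and 6 in LIN9 KO against the control. Erythroid markers had the widest spread, with a sum over the list of 10618, 7628 and 9002 CPM in LIN9 wt and 87300.4, 44078 and 33281 CPM in LIN9 KO of experiment 1. Across experiment 2 the sum was 5202, 4164 and 4277 CPM in the control and 20172, 29449 and 37705 CPM in LIN9 KO, and it was 3564, 3264 and 4274 CPM in Sav1 KO and 29991, 18765 and 10235 CPM in the double KO. All 11 tested were higher, of which 10 were called in LIN9 KO of experiment 1 and 11 in LIN9 KO against the control. Hbb-y or Hba-a1 was the most abundant, and Alas2 was at 0 in all libraries. Whether this 0 reflects its expression or the counting of reads was not tested. Reads of the haemoglobin genes are uncertain as to the copy.

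Endothelial markers, led by Pecam1, Cdh5, Tie1 or Tek, summed to 1005, 1135 and 861 CPM in LIN9 wt and 1047, 1336 and 1066 CPM in LIN9 KO of experiment 1. Their sum in experiment 2 was 956, 965 and 968 CPM in the control and 1165, 1065 and 1009 CPM in LIN9 KO, and it was 901, 832 and 893 CPM in Sav1 KO and 937, 1052 and 1128 CPM in the double KO, with 3 of 7 called higher in experiment 1 and 3 higher and 1 lower in LIN9 KO against the control. The 4 smooth muscle markers, led by Acta2, summed to 1500.2, 1684 and 1422 CPM in LIN9 wt and 1983, 2049.7 and 2247 CPM in LIN9 KO of experiment 1. In experiment 2 their sum was 1475, 1422 and 1408 CPM in the control and 1722, 1503 and 1405 CPM in LIN9 KO, and it was 1641, 1707 and 1688 CPM in Sav1 KO and 1641, 1505 and 1723 CPM in the double KO, with 1 called higher in experiment 1, and 1 higher and 1 lower in LIN9 KO against the control. No marker was called in the tests of Sav1 deletion or in the interaction, where the counts of all genes at an unadjusted p under 0.05 and by DESeq2 are those given for the pathway lists. Mitochondrial genes held 3.42 to 4.02% of the counts in LIN9 KO against 4.204 to 5.42% in LIN9 wt of experiment 1. Libraries of experiment 2 had 2.63 to 3.54% in LIN9 KO, 3.88 to 4.86% in the control, 4.37 to 4.99% in Sav1 KO and 3.58 to 4.76% in the double KO, which overlapped the control. The 10 highest genes held 11.97% of the counts in LIN9 KO replicate 1 of experiment 1, the largest share of the 18 libraries, and the part of these differences in the levels of the mitotic genes was not tested. The part of the other cell types in the lower levels of the mitotic genes was not tested.

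**Figure D5:**
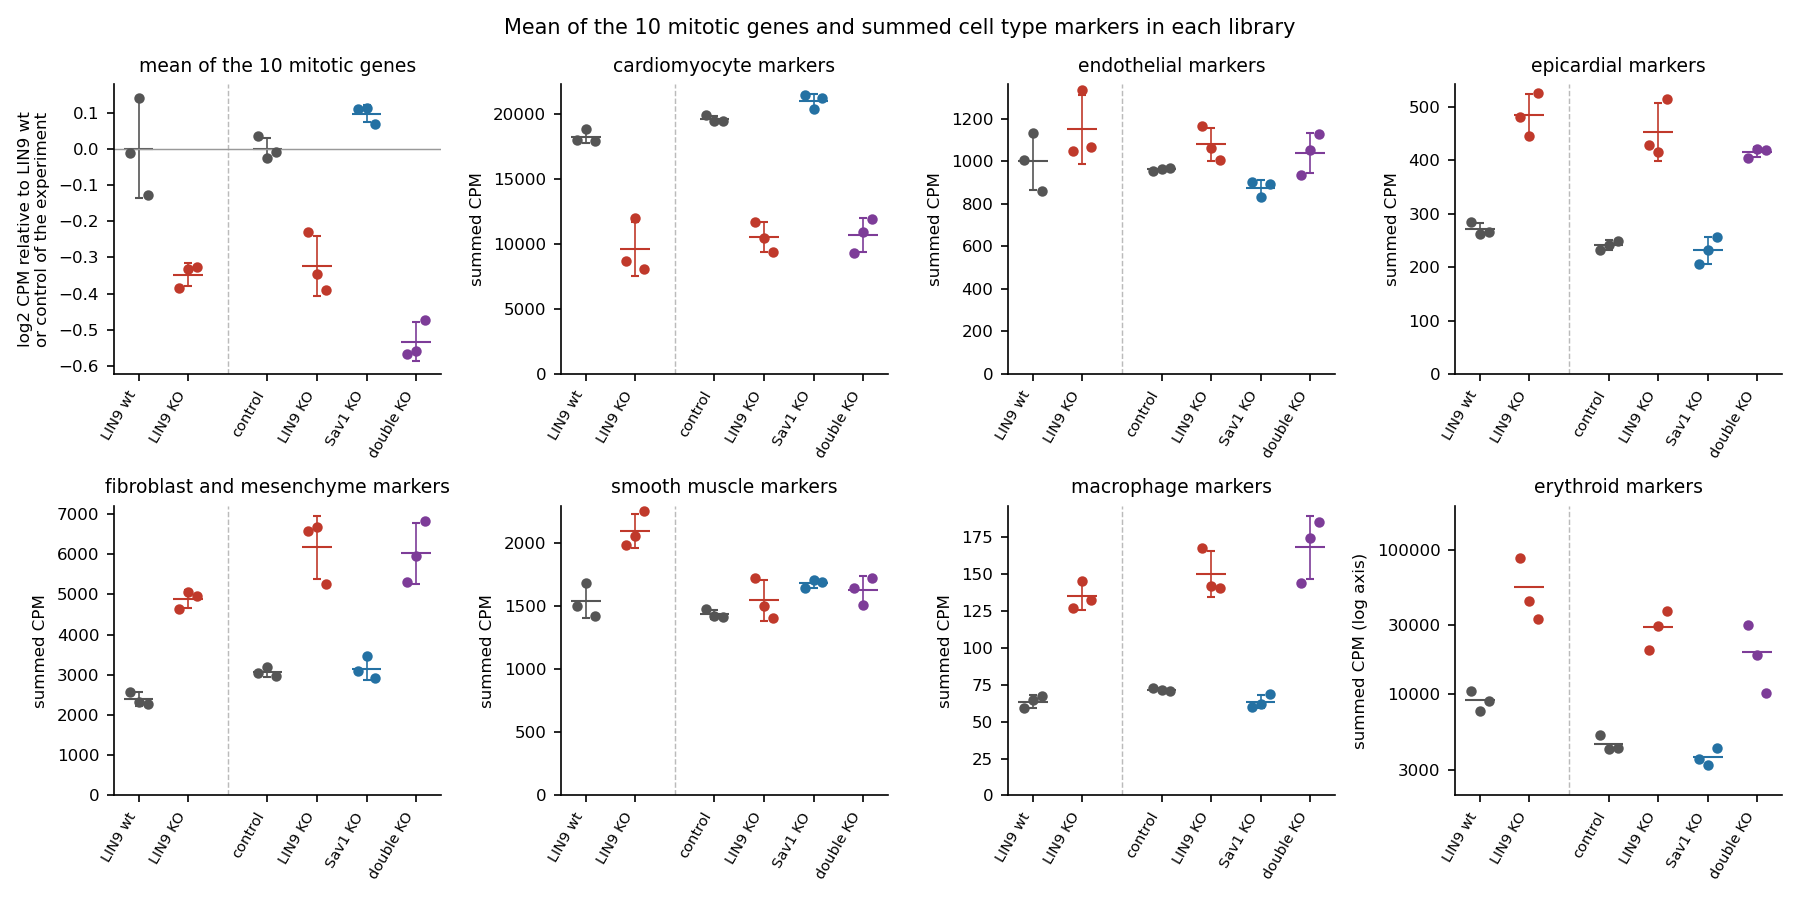
Mean log2 CPM of the 10 mitotic genes relative to LIN9 wt or the control (first panel) and summed CPM of each marker list (other panels, erythroid on a log axis) in every library, with lines for the mean and, except on the log axis, bars for the SD of 3 libraries. Cardiomyocyte sums lie between 8121 and 12037 CPM in LIN9 KO and double KO libraries and between 17955 and 21463 CPM in the others, while epicardial, fibroblast and macrophage sums are higher in LIN9 KO and double KO than in the other groups.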

How the data were processed

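Polyadenylated RNA of E13.5 ventricles was sequenced on an Illumina NextSeq. Per the study's methods, the authors mapped the reads to mm10 with TopHat2 2.1.0 and Bowtie2, brought the libraries of an experiment to the smallest number of mappable reads by a procedure that is not named, and deposited whole-number counts per Ensembl gene from summarizeOverlaps. The overlap mode and strand setting are not given in the sources used here, so reads of overlapping and antisense genes cannot be told apart. Other deposited tables hold the authors' own fold changes, mean log2 CPM, p-values and FDR and were not used.

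Of 48713 table entries, 4 repeated identifiers with equal counts were kept once. Genes with a mean count above 1 were tested in R 4.3.3 with edgeR 4.0.16 (TMM, robust quasi-likelihood fit, group-mean contrasts, Benjamini-Hochberg over all genes tested, threshold 0.05), each experiment in its own fit. The script was tested on simulated counts. Libraries were grouped by their labels. Alternatives were RLE factors, library size alone, no filter, filterByExpr, DESeq2 1.42.0, the 6 libraries of a comparison alone, each library left out, and the replicate number as a block. Same-numbered libraries deviated together (r over 0.1 for every pair) in LIN9 KO and the control (0.247 to 0.628) and in Sav1 KO and the control (0.107 to 0.323). This comes from the values alone and does not show a pairing by number, because some differently numbered libraries also deviated together. Examples are LIN9 KO replicate 3 with control replicate 2 (0.287) and Sav1 KO replicate 2 with control replicate 3 (0.116). Replicate 1 had a negative r with every differently numbered library in both comparisons. Exonic lengths and positions are from GENCODE M21 (GRCm38).

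The 10 genes, the pathway and marker lists and the naming rule were chosen with earlier results of these data known. The rule names the 10 genes, Lin9, Sav1 and, of each pathway list, at most 3 genes with the largest change among those past the threshold in LIN9 KO of either experiment, and the 5 genes most correlated with the mean of the 10 (mean of at least 5 CPM in both experiments). Protein motifs were not analysed here.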

Additional observations from a re-analysis of the deposited data

How the results depend on the processing

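Over 12 to 18 alternatives per comparison, 906 of 950 values of single genes among the 10 kept their direction and their side of the threshold, 23 lost a call, 2 gained one, 19 changed sign without a call and 0 reversed a call. Plk1, Aurka, Nek2, Cdc20 and Ube2c were past the threshold under every alternative in the 4 comparisons of LIN9 KO or double KO with LIN9 wt groups. The calls lost were of Foxm1, Tpx2 and Aurkb, as given with these genes, and the cause was not tested.

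With 1 library left out, genes called in LIN9 KO of experiment 1 ranged from 2722 (without LIN9 wt replicate 3) to 4223. In Sav1 KO against the control they ranged from 0 to 2, and they were 22 with no filter and 31 in the fit to 6 libraries. The median log2 fold change of the 10 genes there ranged from 0.067 to 0.14. Genes called in the double KO against LIN9 KO ranged from 0 to 377 (377 without LIN9 KO replicate 3, 15 without double KO replicate 2), of the 10 genes from 0 to 1, and the median from -0.28 to -0.12. This count was 309 with no filter, 0 with filterByExpr, 11 with DESeq2 and 0 in the fit to 6 libraries. The median ranged from -0.73 to -0.62 in the double KO against Sav1 KO, from -0.61 to -0.53 in the double KO against the control and from -0.38 to -0.28 for the interaction. The interaction called 0 to 64 genes (64 without LIN9 KO replicate 3, 2 without control replicate 1) and 17 with no filter. The cause was not tested.

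With the replicate number as a block, the count of calls was 4367 in LIN9 KO against the control, with 5 of the 10 genes, and 2 in Sav1 KO against the control, with 0 of the 10. It changed no call of the 10 genes in any comparison. It was 84 in the double KO against LIN9 KO, where the numbers do not pair the libraries (r from -0.106 to 0.153). The rule of r over 0.1 for every same-numbered pair was also not met in experiment 1 (0.0471 to 0.281). Nor was it met in the double KO and Sav1 KO (-0.0675 to -0.0204) or in the double KO and the control (-0.0978 to 0.0670). In experiment 1 the block gave 5001 calls, against 4131 without it, with 6 of the 10 genes in both.

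Libraries of experiment 2 hold fewer counts (49 to 62 of Cdc25c in the double KO), and a call in 1 experiment alone shows no difference between the experiments, which was not tested.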
